A study of Mus musculus with 2 samples.

Results

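Borders at which 5-hydroxymethylcytosine (5hmC) changed from high to low between one 100 kb stretch and the next were described in kidney DNA of male C57BL/6 mice, a common inbred strain, aged 6 weeks. 1 library was made from DNA recovered with an Active Motif antibody against 5hmC (hMeDIP), and 1 input library was made with no antibody. How many animals gave the DNA is not stated in the labels, and whole kidney mixes many cell types, so a border seen here is an average over them. A pair of neighbouring fixed bins of 100 kb on chromosomes 1 to 19 was a border when each held at least 50 input fragments, one had a log2 ratio above 0.5 and the other a log2 ratio below -0.5. The ratio is the share of all hMeDIP fragments in a bin over the share of all input fragments there, so a log2 ratio of 0 is the mean of these libraries and not an amount of 5hmC. The rule gave 243 borders among 23263 tested pairs, 1.04% of them.

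TET enzymes oxidise 5-methylcytosine to 5hmC, which is an intermediate of DNA demethylation and also a lasting mark in tissues whose cells divide rarely, such as brain and kidney. In such tissues 5hmC is known to be abundant along the bodies of transcribed genes and at distal enhancers and to be scarce in silent, gene-poor chromatin. hMeDIP reads the mark over short fragments, and its yield depends on how many modified cytosines a fragment carries, so a ratio over 100 kb also depends on CpG density. The genes and the base composition at the borders were not analysed here.

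The borders were chosen by their ratios. Peaks and fragment counts come from the same libraries, so all values below are descriptions of these libraries, with no test. Neither group was replicated, so no error between samples can be given. The 95% intervals cover counting error only, and those of a median cover only the spread over the borders. Fragments sequenced without molecular identifiers may share a molecule of origin, so real intervals are wider.

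The ratio of hMeDIP to input changed by about 3-fold across a typical border. The median log2 ratio was 0.74 in the high bins and -0.75 in the low bins. The median difference was 1.60 on the log2 scale (95% interval of the median 1.53 to 1.67), with quartiles of 1.33 and 1.89 and a range of 1.04 to 3.06. Over all tested pairs the median difference was 0.32, and 7.38% of pairs differed by more than 1. Of the 70 tested autosomal pairs that differed by more than 2, 47 were borders, so the rule held most of the largest changes between neighbours, and it also required them to straddle the library mean. Summed over the borders, the high bins took 212949 fragments of the hMeDIP library and 86363 of the input library, and their pooled ratio was 1.80 (1.78 to 1.81). The low bins took 61376 and 76478, for a pooled ratio of 0.584 (0.578 to 0.590).

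Neither side of a border was an extreme of the genome. All 5360 high bins, 22.9% of the 23419 tested, had a median log2 ratio of 0.94, above that of the high bins at borders. All 11210 low bins, 47.9% of those tested, had a median of -1.44, well below that of the low bins at borders. Many members lay near the threshold: in 109 borders the weaker side was under 0.6 in size. The counting interval of both bins excluded 0 in all 243 borders, but it lay past the threshold on both sides in 77.

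Just inside the threshold, the border on chromosome 14 with the high bin chr14:100600001-100700000 had log2 ratios of 0.91 and -0.50, and the one with the high bin chr1:173900001-174000000 had 1.10 and -0.50. Just outside, the bin chr13:5800001-5900000 stood at 0.4995 between neighbours at -0.59 and -1.001. The bin chr9:34800001-34900000 stood at 0.98 beside one at -0.4982. At the threshold the rule thus separated pairs with nearly equal ratios.

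The same rule was read on each strand, since fragments of the plus and minus strands were counted separately but come from the same DNA. Of the borders, 183 met both thresholds on plus-strand fragments alone and 185 on minus-strand fragments alone, and 135 did so on each. The median difference was 1.60 on the plus strand and 1.59 on the minus strand. The size of the change was thus nearly the same on both strands, while the membership of many borders was within the counting error of fewer fragments.

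Membership also rested on where 0 was set. When libraries were scaled to the fragments outside the authors' peaks, log2 ratios rose by 0.40, high bins became 35.4% and low bins 37.7% of those tested, and 222 pairs were borders. Only 84 of the 243 were among them. Centring on the median bin shared 82. The difference between bins does not depend on this shift, but the set of borders does. For the 84 borders that passed under both scalings, a subset chosen after the values were seen, the median difference was 1.90 and lay between 1.47 and 3.06. With a threshold of 1 on both sides, 14 borders were left.

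A passage from high to low without a step between was the less common kind. Going along the chromosomes, 1325 passages led from a high bin to a low one or back. In 243 of them (18.3%) no bin lay between, which are the borders. In 404 (30.5%) 1 bin between the thresholds was crossed, in 243 there were 2, in 169 there were 3, and in 266 (20.1%) there were 4 or more. The median passage crossed 2 bins. The fixed grid had a part in which kind a passage was: when all bins were moved by 50 kb, 254 borders were found, and 53 of the 243 had one of the same direction 50 kb away.

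Borders were found on every autosome. Chromosome 17 had 5 and chromosomes 2 and 7 had 19 each, with a median of 12. As a share of tested pairs, chromosome 19 had the highest value at 2.13% (exact Clopper-Pearson interval 1.10 to 3.69) and chromosome 17 the lowest at 0.566% (0.184 to 1.31), and these intervals overlapped. The high bin lay towards the higher coordinate in 121 borders. Successive borders of a chromosome were a median of 6.2 Mb apart, and 26 of 224 such distances were at most 1 Mb. Most borders therefore had no other border within 1 Mb. Passages through bins between the thresholds are not counted in these distances, which thus do not tell how wide the high and low stretches were.

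The low runs at borders were longer than the high runs under the stated scaling. The run of high bins that began at a border had a median length of 2 bins and was a single bin in 105 borders, with a longest run of 18 bins. The run of low bins had a median of 3 and was a single bin in 91, with a longest of 85. A run also ended where the next bin had too little input to be tested. Runs of 10 bins or more were seen on the high side of 8 borders and on the low side of 57. Shares of later bins are over the borders at which that bin was tested. For bins 2 and 5 these numbered 242 and 240 on the high side, and 231 and 227 on the low side. The second bin into the high side was still high in 57.0% (50.5 to 63.3) and bin 5 in 36.3% (30.2 to 42.7), against the 22.9% of all tested bins. In that bin 25% were already low. On the low side the second bin was still low in 65.8% (59.3 to 71.9) and bin 5 in 55.9% (49.2 to 62.5), against 47.9% of all tested bins. This order depended on the scaling: with libraries scaled to fragments outside peaks, 70.1% of second bins were still high against 61.6% still low, and at bin 5 the shares were 49.5% and 52.5%. In 40 borders both runs had 3 bins or more, and in 11 both had 5 or more, so an edge between a pair of broad domains was a minority of the borders.

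**Figure D1:**
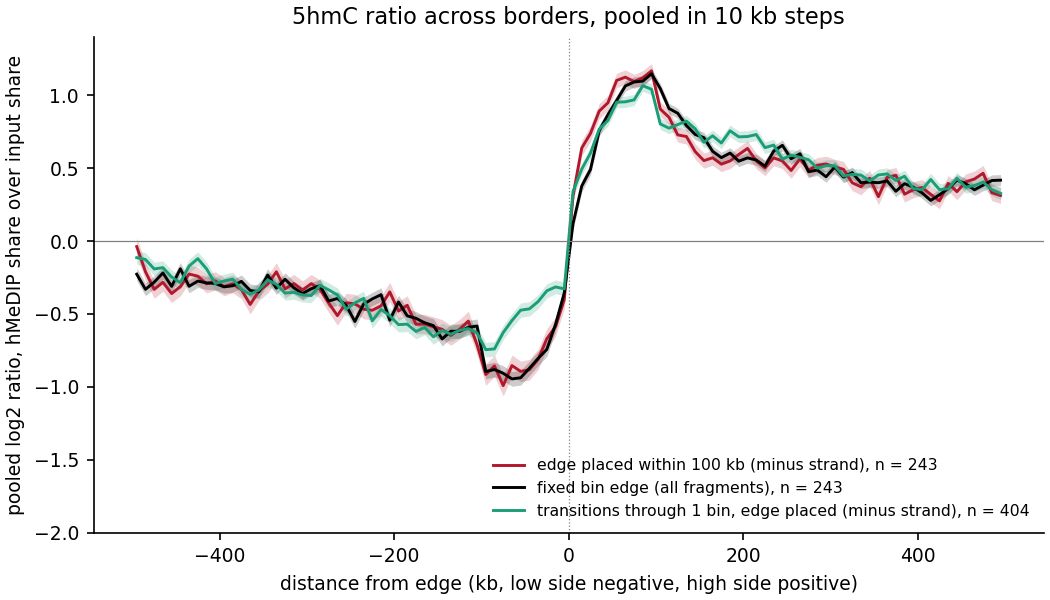
Pooled log2 ratio of hMeDIP to input (vertical axis) against the distance in kb from the edge, low side negative, in 10 kb steps. Lines show the 243 borders at the edge placed on plus-strand fragments and read on minus-strand fragments, the same borders at the fixed bin edge on all fragments, and 404 passages through 1 bin. Bands are 95% counting intervals. The ratio climbs within a few steps of the edge and drops again at 100 kb, where the bins used by the rule and by the placing end.

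To see how steep the change was, the edge of each border was placed where the ratio of 100 kb on one side to 100 kb on the other was largest, within 100 kb of the bin edge and in steps of 10 kb. The placing used plus-strand fragments, and the profile was then read on minus-strand fragments, which had no part in the placing. The placed edge lay on the bin edge in 52 borders, within 20 kb of it in 168, and between 60 kb into the low bin and 70 kb into the high bin in all. The pooled ratio was 0.535 (0.523 to 0.547) at 50 to 100 kb into the low side and 0.580 at 20 to 50 kb. In the last 10 kb before the edge it was 0.757, and in the first 10 kb after it 1.24. It reached 1.56 in the second step, 1.82 at 20 to 50 kb and 2.17 (2.14 to 2.21) at 50 to 100 kb.

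The change between the 10 kb on either side of the edge was 0.71 on the log2 scale, or 35.2% of the 2.02 between the levels at 50 to 100 kb. The distance over which the pooled ratio rose from 25% to 75% of that difference was 19.2 kb (17.3 to 21.2). At the fixed bin edge, with no placing, it was 36.1 kb. With the strands exchanged it was 25.2 kb, outside the counting interval above, but its own interval (18.6 to 31.7) included 19.2 kb. With only 50 kb on each side used for placing it was 14.5 kb (3.02 to 25.9), and the change across the edge was then 0.80. The transition was therefore on the scale of a few 10 kb steps, much shorter than a bin. Its width was longer at the fixed bin edge, and counting error left it imprecise under the other ways of placing. In the 40 borders with runs of 3 bins or more on both sides, a subset chosen after the values were seen, it was 23.3 kb. Passages through 1 bin, placed in the same way, had a width of 27.4 kb and a change across the edge of 0.67 out of a smaller difference of 1.62. Their width was thus longer than the interval of 17.3 to 21.2 kb for borders, while their change across the edge was similar. Both kinds of edge were placed where the contrast was largest, which favours a large change there. The comparison is of pooled values, with no test.

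Beyond 100 kb the contrast shrank. The pooled ratio was 1.59 at 100 to 200 kb and 1.36 at 200 to 500 kb on the high side, and 0.671 and 0.798 on the low side. Both sides thus moved towards 1 without reaching it. The drop at 100 kb coincides with the end of the windows that the rule and the placing used, so the highest levels next to the edge are in part set by the choice of borders.

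**Figure D2:**
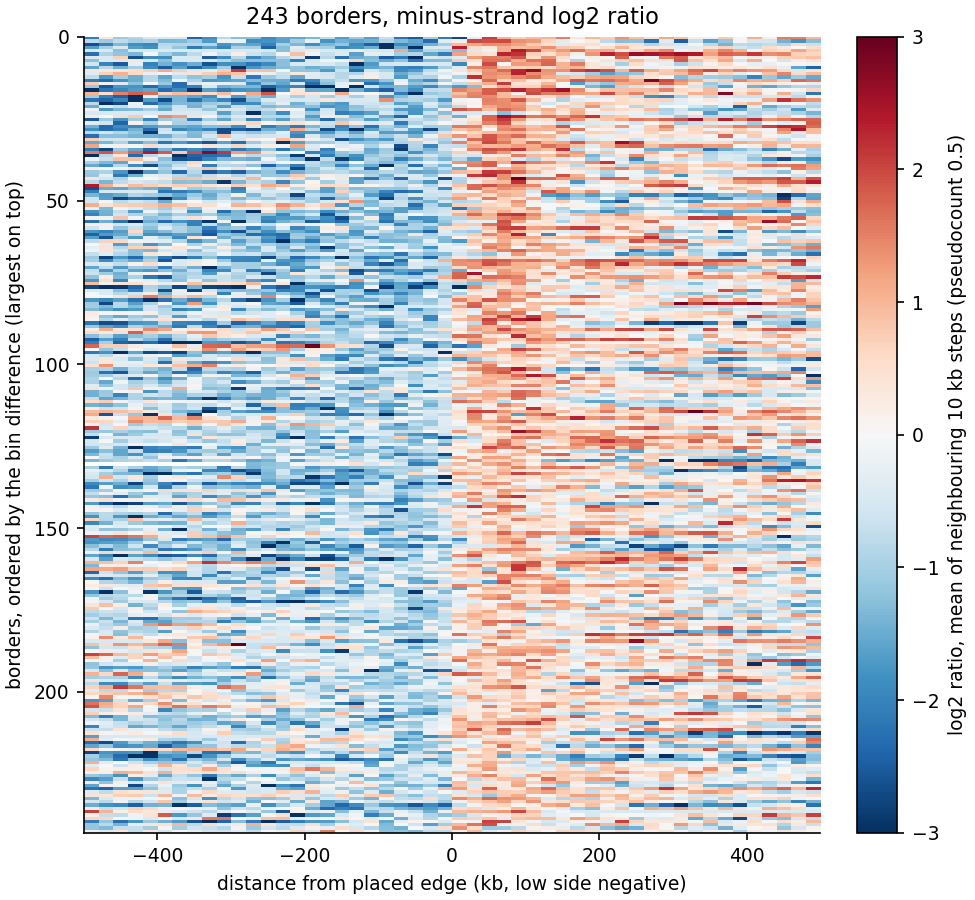
Each row is 1 of the 243 borders, ordered by the difference between its bins, with the distance in kb from the placed edge along the horizontal axis and the minus-strand log2 ratio as colour (mean of neighbouring 10 kb steps, pseudocount 0.5). Red values fill most rows for 100 kb right of the edge and blue values for 100 kb left of it. Farther out rows differ, and single steps are noisy.

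Single borders varied widely in steepness. The difference between the 20 kb on either side, as a share of that at 20 to 100 kb, had a median of 0.46 (0.41 to 0.58) and quartiles of 0.14 and 0.79. In 68 borders it was at least 0.75, and in 79 it was under 0.25. The low shares are not all ramps, since some were below 0, such as -0.54 at chr2:90200001-90300000, where coverage had gaps. The difference within 20 kb was as low as -2.93 on the log2 scale, and that at 20 to 100 kb as low as -0.78. A share with a negative part does not describe steepness. A stretch of 20 kb held a median of 35 minus-strand input fragments on the high side, so the share of a single border is imprecise, and the quartiles include counting noise.

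Peaks of 5hmC stood almost wholly on one side. Counted per border, so that a bin shared by neighbouring borders counts at each, the authors' peak list placed 2525 peaks in the high bins. That was a mean of 10.4 and a median of 9 per bin with a range of 1 to 27. The distinct high bins held 2493 peaks. The low bins held 100, a mean of 0.412. No peak lay in 166 of the low bins, and the high bin had more peaks than the low bin in all 243 borders. Over all bins the mean was 13.2 peaks in high and 0.179 in low bins, so the high bins at borders held fewer peaks than high bins in general and the low bins more than low bins in general. Peaks covered 14.4% of the high bins and 0.402% of the low bins, and took up 42.6% and 3.60% of the hMeDIP fragments there. They had a median width of 1185 bp in the high bins of borders against 1220 bp in other high bins. The few in low bins were narrower, at 881 bp. The median score, which is the authors' own value for each peak, was 89.1 in the high bins of borders and 64.5 in the low bins, in a list whose lowest score was 50. Under scaling to fragments outside peaks, where the borders were largely other pairs, the high bin held a mean of 6.73 peaks and the low bin 0.162.

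**Figure D3:**
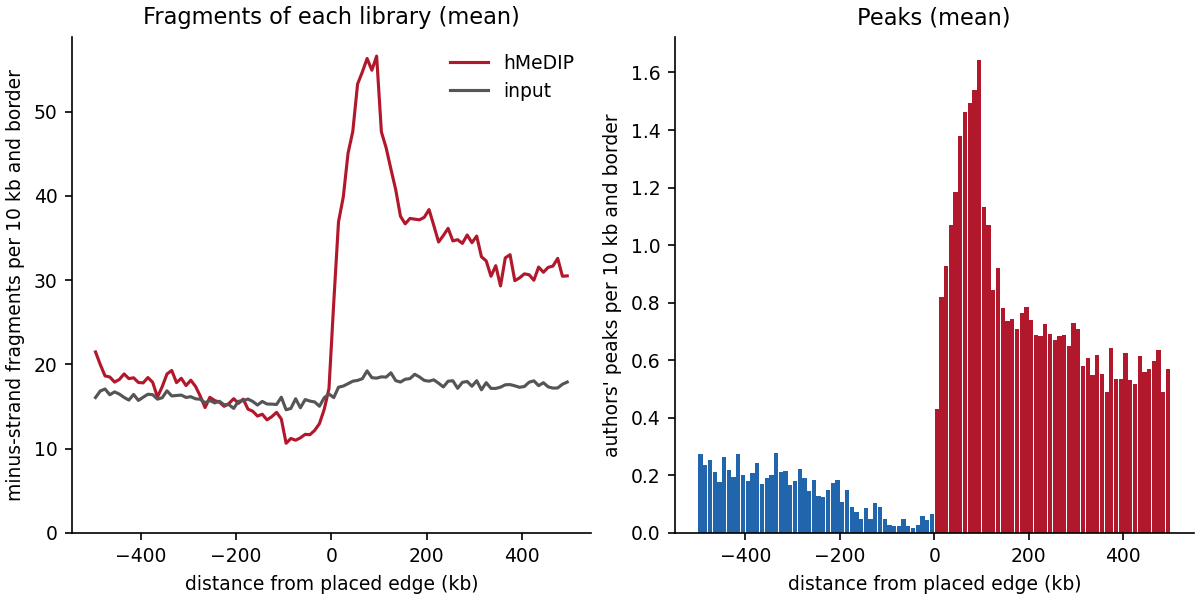
Left, mean number of minus-strand fragments per 10 kb and border in the hMeDIP and the input library against the distance in kb from the placed edge. Right, mean number of the authors' peaks per 10 kb and border. The hMeDIP line rises from 11.2 at 50 to 100 kb on the low side to 55.2 on the high side while the input line goes from 15.2 to 18.5, and peaks rise from 0.0305 to 1.50.

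Along the profile, peaks per 10 kb rose from 0.0305 at 50 to 100 kb into the low side to 1.50 at the same distance into the high side. The last 10 kb before the placed edge held 16 peaks over all borders, and the first 10 kb after it held 105. The nearest peak lay a median of 17.2 kb from the edge on the high side and 166 kb on the low side. It was within 10 kb on the high side in 76 borders and on the low side in 16.

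The change was not limited to peaks. With fragments in peaks left out of the bins, the pooled ratio was 1.21 (1.20 to 1.22) in the high bins and 0.566 (0.560 to 0.572) in the low bins, on the scale of all fragments used above. Relative to the fragments outside peaks of each library, it was 1.59 (1.58 to 1.61) and 0.747 (0.739 to 0.755). The difference stayed above 0 in all 243 borders, with a median of 1.10 (1.05 to 1.14) on the log2 scale, and was above 1 in 156. It was a median of 0.69 of the difference with peaks included. The level between peaks therefore changed in the same direction at each border. Weaker sites that were not called as peaks cannot be told apart from a diffuse signal. At the same placed edges the width outside peaks was 25.8 kb.

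**Figure D4:**
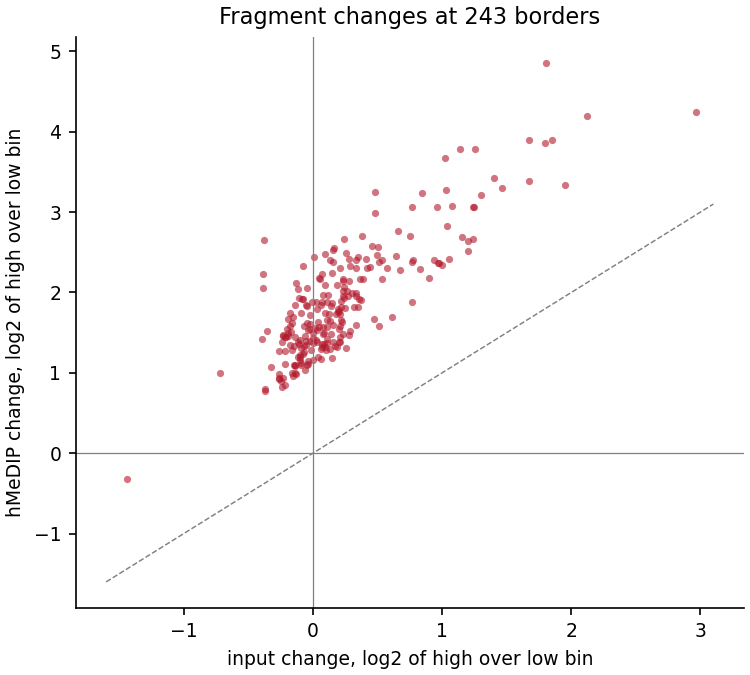
Change of hMeDIP fragments (vertical axis) against change of input fragments (horizontal axis) from the low to the high bin, as log2 of the number of fragments, for 243 borders (points). The dashed line marks equal change in both libraries, and every point lies above it since the rule required a higher ratio. Most points lie near an input change of 0 with an hMeDIP change of 1 to 2.5, and a tail to the right has more input in the high bin.

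Input changed far less than hMeDIP at the median border. The median low bin had 269 fragments of hMeDIP and 339 of input, and the median high bin 854 and 362, beside 355 of input over all tested bins. The change of input from the low to the high bin had a median of 0.11 on the log2 scale (0.07 to 0.16), quartiles of -0.08 and 0.35 and a range of -1.44 to 2.96. The change of hMeDIP had a median of 1.74 (1.61 to 1.88) and was above 1 in 228 borders. Summed over borders, input changed by 0.18 and hMeDIP by 1.79. In 120 borders the input change was under 0.2 in size, and their median difference in ratio was 1.51. These were picked for their small input change, so their ratio difference is close to their hMeDIP change by construction. The median input change was 0.026 on the plus strand alone, 0.061 on the minus strand alone and 0.020 with 50 kb bins, all from fewer fragments. The minimum of 50 input fragments also held on a single strand, which left out more thinly covered bins. With 200 input fragments required in both bins it was 0.077, inside the interval above. The parts of depth and of coverage were not tested.

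Under the stated rule, the bin with the higher ratio also tended to hold more input. The interval of the median input change reached 0 or below on the plus strand alone, with 50 kb bins, with a threshold of 1 and for borders called outside peaks. It lay above 0 under the other alternatives. The exact interval of the input share showed more input in the high bin at 92 borders (37.9%), against 16.2% of all tested pairs for the bin of higher ratio. It showed less input in the high bin at 21 borders (8.64%), against 14.8% of all pairs. Under scaling to fragments outside peaks the counts were 114 and 10 of 222 borders, and the median input change was 0.23. A change of more than 1 in size was found at 25 borders (10.3%) and in 1.78% of all pairs. Low bins at borders were often thinly covered: 32 (13.2%) had under 200 input fragments, against 7 of the high bins and 3.71% of all tested bins. A 10 kb step with no input fragment at all was found in 21 low bins and 8 high bins (8.64% and 3.29%), against 2.71% of tested bins. The part of this thin coverage in the ratios was not tested. With 200 input fragments required in both bins, 210 borders were left, with a median difference of 1.56 and a width of 19.2 kb.

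Within the pooled profile, input rose from 15.2 minus-strand fragments per 10 kb at 50 to 100 kb on the low side to 16.3 in the 20 kb before the edge, 16.7 in the 20 kb after it and 18.5 at 50 to 100 kb on the high side. The hMeDIP fragments at the same distances were 11.2, 15.9, 32.1 and 55.2. Input thus drifted across the whole stretch, while hMeDIP rose at the edge from 15.9 to 32.1 and went on rising beyond it. The edges were placed where the ratio contrast was largest, so a rise of hMeDIP there is favoured by the placing.

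**Figure D5:**
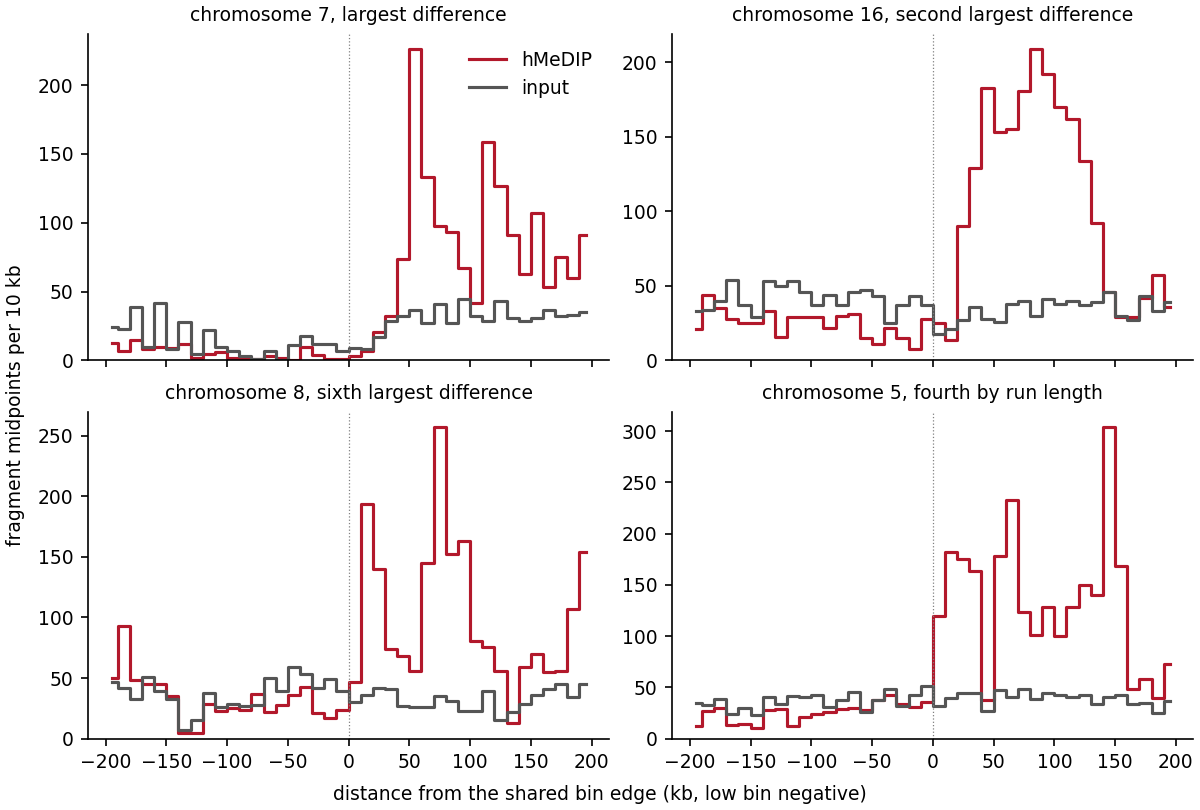
Fragments per 10 kb (vertical axis, both strands) of the hMeDIP and input libraries within 200 kb of the shared bin edge (horizontal axis in kb, low bin negative) at 4 single borders. On chromosomes 16, 8 and 5 the hMeDIP line leaves the input level within 1 to 3 steps of the bin edge. From the high to the low bin input is higher in the low bin on chromosomes 16 and 8, similar on chromosome 5 and lower in the low bin on chromosome 7.

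The largest difference lay between chr7:5000001-5100000, with 754 hMeDIP and 272 input fragments, and the next bin, chr7:5100001-5200000, with 26 and 78. The log2 difference was 3.06, with an interval of 2.36 to 3.78. Input was also higher in the high bin here, by 1.80 on the log2 scale, and a single 10 kb step of the low bin held at most 18 input fragments. The change was no step but a climb, from 3 hMeDIP fragments in the first 10 kb of the high bin to 7, 21, 32, 74 and 226 in the next 5 steps.

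The second largest difference was 3.03 (2.73 to 3.34). The high bin chr16:28800001-28900000 held 1331 hMeDIP and 305 input fragments and 21 peaks. The low bin before it held 211 and 396 and no peak, so input was higher on the low side, with a change of -0.38 (-0.60 to -0.16). In the 10 kb steps from 10 kb into the high bin, hMeDIP counts went from 14 to 90, 129 and 183 while input counts were 21, 27, 36 and 28. This is the change of a domain edge within about 20 kb, some 20 kb inside the high bin. The low run behind it was 14 bins long and the high run 2.

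A step at the bin edge itself was seen at chr8:34700001-34800000, with 1296 hMeDIP and 317 input fragments and 24 peaks, beside a low bin with 277 and 415 and no peak. The difference was 2.61 (2.33 to 2.90). The last 10 kb of the low bin held 24 hMeDIP fragments and the first 2 steps of the high bin 47 and 194, with input of 39, 30 and 36. On minus-strand fragments alone, with the pseudocount, the difference between the 20 kb on either side was 3.79, the highest of the 243. It rests on fewer fragments than the counts above, which are of both strands, and is the largest of many imprecise values. The low bin was a single bin, and the high run had 5.

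At chr9:90100001-90200000 the high bin held 923 hMeDIP and 361 input fragments and the next bin 97 and 259, a difference of 2.77 (2.38 to 3.17). The nearest peak on the low side lay 529.6 kb from the placed edge, and the low run was 19 bins long. Outside peaks the difference was 2.38, the highest of all borders. The hMeDIP counts changed from 24 to 97 and 150 from step 3 to step 5 of the high bin, and input counts were 22, 38 and 38.

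Of the other large differences, some had gaps in coverage at the edge and others did not. At chr9:13200001-13300000 (difference 2.64) the 4 steps around the bin edge from 30 kb before to 10 kb after it held 0 fragments of either library, so the edge cannot be placed within that gap. At chr2:90200001-90300000 (2.44) the high bin had 62 and the low bin 81 input fragments, and 8 steps in a row had none. At chr4:144400001-144500000 (2.44) input was 243 and 242 in the bins, and the hMeDIP counts rose only in the second part of the high bin, from 17 to 42, 74, 125 and 210 over its last 5 steps. The high bin chr14:8600001-8700000 (2.64) had 352 input fragments against 173, and its hMeDIP counts rose from 40 to 100 and 232 between steps 4 and 6. The high bin chr7:31900001-32000000 (2.53) had 360 input fragments against 151. The high bin chr7:16500001-16600000 (2.51) had 336 against 241 and 146 hMeDIP fragments in its first step after 28 in the step before. Of the 10 largest differences, 6 thus had more input in the high bin by 0.48 or more on the log2 scale.

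Edges between long domains differed by 1.26 to 2.39. At chr5:64200001-64300000, with high bins for 9 and low bins for 10, the bins held 1443 and 319 hMeDIP fragments with 409 and 396 of input, a difference of 2.13 (1.86 to 2.40). The hMeDIP counts per 10 kb were 34, 31 and 36 before the bin edge and 120, 182 and 175 after it, so most of the change fell between neighbouring steps. At chr19:53000001-53100000, between 11 high and 41 low bins, the difference was 1.85 (1.56 to 2.15) with 339 and 333 input fragments. The placed edge was 50 kb inside the high bin there, and counts climbed from 71 to 141, 191 and 313 over the last 4 steps of the bin. At chr19:55100001-55200000, between 11 high and 8 low bins, the difference was 1.68, and at chr15:59600001-59700000, between 11 and 9, it was 1.26, with an edge placed 50 kb into the low bin. The border with the longest runs by the rule, on chromosome 18, had 14 high and 17 low bins, 743 and 79 hMeDIP fragments, and input of 294 and 164, a difference of 2.39 (1.94 to 2.84). Long runs thus went with steep and with gradual edges alike.

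The largest changes of input came with thinly covered low bins. The high bin chr12:89600001-89700000 held 398 input fragments and the bin before it 51, a change of 2.96, and the difference in ratio was 1.28 with an interval of 0.63 to 1.93. At chr5:147000001-147100000 input changed by 2.12, from 86 to 375, and at chr4:147200001-147300000 by 1.95, from 90 to 348. The opposite was rare. At chr15:74800001-74900000 the high bin had 105 input fragments and the low bin 284, and 220 hMeDIP fragments against 274. This is the 1 border at which the high bin held fewer hMeDIP fragments than the low bin. Input in the high bin was also lower at chr1:58700001-58800000, with 203 against 335, and at chr1:34900001-35000000, with 284 against 373. At these the hMeDIP counts were still higher in the high bin, 629 against 316 and 575 against 215.

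Single bins that stood out from both neighbours gave 6 places. High islands, with a low bin on each side, were chr12:89600001-89700000, chr9:92400001-92500000, chr19:12500001-12600000 and chr1:24700001-24800000. The island on chromosome 9 had a log2 ratio of 0.66 (0.48 to 0.84) and 10 peaks, between bins at -0.52 and -0.80 with no peak. The islands on chromosomes 19 and 1 had 0.54 and 0.58, between bins at -1.54 and -0.63 and at -0.88 and -0.59. Low islands were chr14:65100001-65200000, at -0.62 (-0.85 to -0.39) with no peak between bins at 0.54 and 0.70 with 5 and 6 peaks, and chr9:114100001-114200000, at -1.18 (-1.87 to -0.50). The latter had 51 input fragments and its neighbours 60 and 135. A low island with full coverage in both libraries was thus found at 1 place.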

How the data were processed

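hMeDIP and input DNA were sequenced in 1 library each. Per the submitters' processing notes, CASAVA, Bowtie 1.0.0 and the build mm9 were used, and the sources used here give no other setting. Each line of the deposited position files gives 350 bp, a strand and a read count, read here as 1 fragment and assigned by its midpoint. This gave 11424027 hMeDIP and 8316507 input fragments. Per the file headers, the peaks with their score were called with MACS, and the header does not tell whether on this library alone.

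Ratios carry exact conditional binomial intervals (scipy 1.17.1, numpy 2.4.6, pandas 2.3.3). Their median over borders carries an order-statistic interval. Profiles have 10 kb steps over 500 kb on each side, and ratios of single steps a pseudocount of 0.5. Scripts were tested on simulated counts with known edges. Named borders are the 10 largest differences, the 5 longest runs, the 3 largest input changes in each direction, the 3 pairs nearest the threshold on each side and the islands. The members and lists were chosen with earlier results of these data known. Coordinates are 1-based on mm9. The reference tables at hand are on another build, so no gene or sequence is given.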

Additional observations from a re-analysis of the deposited data

Results flagged for a closer look

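Chromosome X, which the rule leaves out, held 9 borders among 1411 tested pairs, or 0.638% (exact Clopper-Pearson interval 0.292 to 1.21), against 1.04% on the autosomes. It was looked at because a signal appeared in data that the comparisons above do not use. The kidneys were from males, with 1 X chromosome per cell, and the same minimum of 50 input fragments was applied. A single high bin, chrX:137500001-137600000, had a border on both sides, with differences of 2.37 and 2.42 on the log2 scale, 330 hMeDIP and 82 input fragments, and 188 and 201 input fragments in its neighbours.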

How the results depend on the processing

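Among 140 values recomputed under alternatives, 74 stayed within the interval of the reported value (counts of borders within 1.5 times), 66 moved, and none changed sign. Most could not change sign: counts, widths and percents are never negative, and the rule fixes the direction of the ratios. Centring also leaves the difference outside peaks as it is by construction. Ratios are pooled, changes are medians of log2 values, and peaks are means per 100 kb. With 1 library per group, no replicate could be left out. No paired analysis was possible because each group has 1 library.

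Scaling to fragments outside peaks gave pooled ratios of 1.87 in the high and 0.601 in the low bins, a median input change of 0.23, a median hMeDIP change of 1.88, 6.73 peaks in the high and 0.162 in the low bin, and 70.1% and 49.5% of high-side bins still high at bins 2 and 5 (low side still low, 61.6% and 52.5%). Centring on the median bin gave 1.90, 0.603, 0.24, 1.88, 6.67 and 0.147 for the first 6 of these. A threshold of 1 gave 14 borders with a median difference of 2.35, ratios of 2.38 and 0.456, an input change of 0.21, an hMeDIP change of 2.48, and 16.9 and 0.0714 peaks. At bins 2 and 5, 28.6% of high-side bins were then still high, and 50% and 40% of low-side bins still low.

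Bins of 50 kb gave 407 borders, a median difference of 1.50, ratios of 1.76 and 0.596, an input change of 0.020, an hMeDIP change of 1.56, and 9.83 and 0.329 peaks. Bins of 200 kb gave ratios of 1.76 and 0.567 and 0.513 peaks in the low bin, and bins moved by 50 kb gave 1.83 and 0.573. Borders called from fragments outside peaks numbered 97, with a median difference of 1.41 and ratios of 1.62 and 0.610. They had an input change of 0.018, an hMeDIP change of 1.47 and 8.53 peaks in the high bin. The 243 borders of the main rule, placed and read on fragments outside peaks, had a width of 24.7 kb (18.3 to 31.1). Without 1 kb around peaks as well, the difference outside peaks was 1.03. Weighting by reads gave a high ratio of 1.78. Plus-strand fragments alone gave an input change of 0.026 and 0.506 peaks in the low bin, and minus-strand fragments alone 0.061 and 0.550 with a high ratio of 1.82.

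The transition width was 25.2 kb with the strands exchanged, 36.1 kb at the fixed bin edge and 14.5 kb with 50 kb on each side. The counting intervals with exchanged strands (18.6 to 31.7) and with 50 kb on each side (3.02 to 25.9) include the main value of 19.2 kb. The share of the change within 20 kb was 0.60 on all fragments, 0.31 at the fixed edge and 0.59 with 50 kb on each side. The following subsets were chosen after seeing the data. Borders that pass under both scalings need a larger difference to do so. They had a median difference of 1.90, an input change of 0.23 and an hMeDIP change of 2.29. Those with an input change under 0.2 had 1.51 for the ratio and 1.50 for hMeDIP. Those with both runs of 3 bins or more had a width of 23.3 kb. The cause of these shifts was not tested.

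Depth limits single borders more than sums. A bin held a median of 355 input fragments and a 10 kb step a median of 35, so the place and steepness of single edges are imprecise, and bins near the threshold can change side with the counting error alone.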
